A study of Mus musculus with 8 samples.

Results

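Voltage-gated sodium channel genes were examined in the hippocampus of mice that lack SAP97 in cells of neural origin. The set comprised 7 genes chosen by name from the deposited gene table of 25834 genes: the pore-forming α subunit genes Scn1a, Scn2a, Scn3a and Scn8a, and the auxiliary β subunit genes Scn2b, Scn3b and Scn4b. Of these, 6 were found under the same symbol, and Scn2a was listed under its older symbol Scn2a1 and matched by its Ensembl identifier (ENSMUSG00000075318). All 7 passed the filter on low counts. Another 5 genes of the family are given after them.

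RNA-seq libraries came from the hippocampi of male mice, 4 controls and 4 SAP97-cKO animals, each with a library of its own. SAP97, encoded by Dlg1, is a scaffolding protein of the postsynaptic density, and the comparison asks which transcripts differ when it is lost. SAP97-cKO mice were Nestin-cre+/-; SAP97fl/fl, so that Cre was driven by the Nestin promoter, which is active in progenitors of both neurons and glia. Controls were littermates with the genotypes Nes-cre+/-, SAP97fl/fl or wild type. Which of these each control library came from, and the age of the sequenced mice, were not given in the sources used here.

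Voltage-gated sodium channels open when the membrane depolarizes and carry the inward current of the action potential upstroke. A single α subunit folds into the pore, its voltage sensors and the gate that closes it, and β subunits with an immunoglobulin-like fold bind to it and alter its gating and its place in the membrane. In the adult hippocampus Scn2a and Scn8a serve mainly excitatory neurons and are concentrated at the axon initial segment, Scn1a is best known from parvalbumin interneurons, and Scn3a is most abundant before birth. The subunits of Scn2b and Scn4b are joined to the α subunit by a disulphide bond, whereas that of Scn3b is held without one. Scn4b is known for resurgent current in fast-firing neurons.

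Reads are assigned to these genes by their sequence, and the α genes are alike in part. The transcripts of GENCODE M21 (GRCm38) were therefore searched for shared stretches. Of all stretches of 100 bases, 2.95% in Scn3a, 1.53% in Scn2a and 1.22% in Scn1a occurred identically in another gene, each with Scn9a and with each other among the sharers, and the share was 0% in Scn8a and in the 3 β genes. With stretches of 50 bases the shares were 8.53% in Scn3a, 7.87% in Scn2a (partly with genes outside the family), 5.48% in Scn1a, 1.02% in Scn2b (with genes outside the family), 0.0527% in Scn8a and 0% in Scn3b and Scn4b. No source used here gave the read length, so the part of the counts that could be split between genes is not known. Of the α genes, 3 lie near each other on chromosome 2 of GRCm38: Scn3a at chr2:65457118-65567627 on the minus strand, Scn2a 53.1 kb farther on the plus strand at chr2:65620771-65767447, and Scn1a at chr2:66270778-66440840 on the minus strand. Scn8a lies alone at chr15:100869858-101045938 on the plus strand, and Scn3b at chr9:40269217-40291618 on the plus strand. In the annotation no exon of the 7 genes overlapped an exon of another gene.

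The ends of the coding sequences of the α genes are shown because the PDZ domains of SAP97 are known to bind the last residues of membrane proteins. These are the last 30 bases before the stop codon, read from GENCODE M21 transcripts in the 5′ to 3′ direction of the gene, with the last 3 codons in capitals. They lie at chr2:66272888-66272917 (minus strand) for Scn1a, chr2:65764797-65764826 (plus) for Scn2a, chr2:65460560-65460589 (minus) for Scn3a and chr15:101040656-101040685 (plus) for Scn8a.
Scn1a: gaagggaaggatgaaaaagccAAAGGGAAA
Scn2a: aaggggaaagatatcagggaaAGTAAAAAG
Scn3a: ccagaaaaagaaagcaaagggAAAGAGGTC
Scn8a: aggcaaaaagaagtcagggagTCCAAGTGC

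The last 9 bases differed at 4 positions between Scn1a and Scn3a, the closest pair, and at 8 between Scn1a and Scn8a, the pair farthest apart. Over the 30 bases Scn1a and Scn2a differed at 16 positions and Scn2a and Scn8a at 14.

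The libraries held 37388177 to 37426572 counts on genes, since the authors resampled the reads to a common depth. Dlg1 was at 55.2% of the control mean in SAP97-cKO hippocampi, with 3983 to 4691 normalized counts in controls and 2009 to 3065 in SAP97-cKO libraries (log2 fold change -0.86, SE 0.12, edgeR adjusted p = 0.143). These counts cover the whole gene, so they do not measure how much intact transcript or protein remained. The paper reports a much larger fall in reads on an exon of this gene, which it took as evidence of an effective knockdown. It also checked the protein in each animal by western blot before sequencing. Of 16251 genes tested, 48 passed the study's threshold of an adjusted p (false discovery rate, FDR) under 0.25, 46 with lower and 2 with higher SAP97-cKO counts. All 12 neuron marker genes were detected in every library, with summed levels of 8943 to 9669 CPM (the count relative to the scaled library total) in controls and 8945 to 10270 CPM in SAP97-cKO libraries. Markers of the choroid plexus, which lies against the hippocampus, varied from 173 to 6821 CPM in controls and from 99.0 to 2348 CPM in SAP97-cKO libraries. The 8 oligodendrocyte genes were all detected, at 5929 to 9501 CPM against 4600 to 8325 CPM, and the 10 meningeal fibroblast genes at 210 to 331 CPM against 107 to 200 CPM. None of the genes of these 4 lists was at 0 in any library. With the neuron level as a covariate the log2 fold changes of Scn2a, Scn3a, Scn8a and Scn3b were 0.25, 0.26, 0.26 and 0.15, and those of Scn1a, Scn2b and Scn4b were -0.06, 0.03 and -0.32. With the choroid plexus level as a covariate they were 0.36, 0.31, 0.36 and 0.15, and -0.03, 0.08 and -0.22. All 6 glutamatergic marker genes had log2 fold changes above 0 (median 0.17), and 8 of the 12 neuron genes did (median 0.03). All 8 oligodendrocyte genes were below 0 (median -0.49). At an unadjusted edgeR p under 0.05 there were 2, 2 and 6 genes of these lists, beside 11.7% of all genes. None of the glutamatergic, neuron or oligodendrocyte genes passed an FDR of 0.25. All 10 meningeal fibroblast genes were below 0 (median -1.08). Of these, 8 had an unadjusted edgeR p under 0.05, and 5 passed the FDR of 0.25, beside 0.295% of all genes. All 10 choroid plexus genes were also below 0 (median -1.48), with 0 at either threshold. The glutamatergic level was not used as a covariate. The part of the other lists in the results below was not tested. In bulk tissue fewer cells of a type and less RNA per cell cannot be told apart.

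One library stood apart in a way that touches these genes, of which the 4 α genes are long. The exons of the α genes add up to 11146 bp in Scn1a, 12459 bp in Scn3a, 12732 bp in Scn2a and 15766 bp in Scn8a, and those of the β genes to 4656 bp in Scn2b, 4982 bp in Scn4b and 5461 bp in Scn3b. In control 4 the median gene with over 8 kb of exon (2710 genes) lay 0.22 below its mean over all libraries on the log2 scale, and the median gene under 2 kb (2512 genes) lay 0.219 above it. In the other 7 libraries the same medians ran from 0.00823 to 0.073 above the mean and from 0.0593 below to 0.00428 above it. In the class of 4 to 8 kb (5967 genes), which holds the 3 β genes, the median of control 4 was only -0.0442. Control 4 was the lowest of the 8 libraries for 6 of the 7 sodium channel genes. Its log2 deviation from the gene mean was -0.195 for Scn2b, -0.393 for Scn3b and -0.431 for Scn4b. For the α genes it ran from -0.203 (Scn1a) to -0.767 (Scn8a). How much of these deviations goes with length was not tested. The log2 fold changes below are therefore also given without control 4, and with an offset for transcript length in every library (length offsets), an alternative chosen after the data had been seen.

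**Figure D1:**
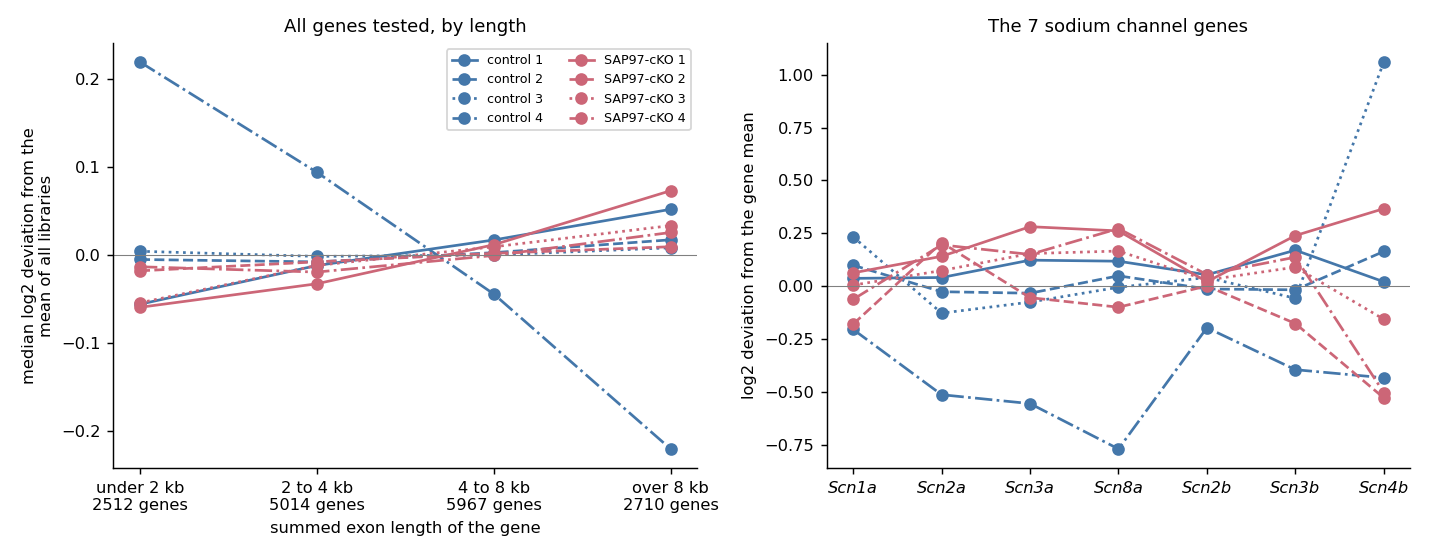
Left, median log2 deviation of genes from their mean over all 8 libraries in 4 classes of summed exon length, 1 line per library (blue control, red SAP97-cKO); right, the log2 deviation of each of the 7 sodium channel genes from its own mean. Control 4 falls from 0.219 in genes under 2 kb to -0.22 in genes over 8 kb, and reaches -0.767 for Scn8a.

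By edgeR's quasi-likelihood test 0 of the 7 sodium channel genes passed the FDR of 0.25, a threshold that 0.295% of all genes tested passed. The count was 0 by limma-voom and 1, Scn2a, by DESeq2, which called 6.75% of the genes for which it gave an adjusted p. At an unadjusted p under 0.05, which 11.7% of all genes reached, there was 1 gene, Scn2a, with a higher level in SAP97-cKO hippocampi. Scn2a was also the 1 gene whose SAP97-cKO libraries all lay outside the range of the controls, as was the case for 6.25% of all genes. The median log2 fold change over the 7 genes was 0.14, with 5 genes higher and 2 lower in SAP97-cKO means, beside a median of -0.01 over all genes tested. Without control 4 the median over the 7 genes was 0.05, and with length offsets it was 0.13. At an unadjusted edgeR p under 0.05 there were 3 of the 7 genes without control 4, beside 1962 of 16434 genes. With length offsets there were 2 of the 7, beside 2047 of 16203 genes. In both settings 0 of the 7 passed the FDR of 0.25.

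Scn2a, which encodes the channel of excitatory axons, had 13352, 12745, 11881 and 9096 normalized counts in control libraries 1 to 4. In SAP97-cKO libraries 1 to 4 it had 14312, 14967, 13663 and 14851. The SAP97-cKO libraries lay above all controls, and control 4 was the lowest of all. The means were 11768 ± 1881 and 14448 ± 596 (SD, 4 mice each), and SAP97-cKO over control gave 0.30 on the log2 scale (SE 0.11, 95% interval 0.05 to 0.54). The adjusted p was 0.371 over all genes by edgeR's quasi-likelihood test, and an exact two-sided permutation test of the 4 and 4 libraries gave p = 0.0286, the smallest that this design allows. Without control 4 the log2 fold change was 0.19 (SE 0.06, edgeR adjusted p = 0.316), and with length offsets 0.22 (SE 0.07, edgeR adjusted p = 0.294). The gene passed the threshold under DESeq2 (adjusted p = 0.206) and without control 1 (edgeR adjusted p = 0.207), where edgeR called 10.2% of all genes, with log2 fold changes of 0.30 and 0.36, and its adjusted p ran from 0.206 to 0.695 over the 18 alternatives.

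Scn8a, whose channel sets the threshold of the axon initial segment and carries current at nodes of Ranvier, had 15435, 14711, 14172 and 8348 normalized counts in controls. It had 17038, 13276, 15955 and 17169 in SAP97-cKO libraries. Control 4 was far below the rest, and SAP97-cKO 2 lay below the other 3 controls, so the groups overlapped. The log2 fold change was 0.27 (SE 0.17, interval -0.12 to 0.65, edgeR adjusted p = 0.539), and it was 0.10 without control 4 and 0.18 with length offsets.

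Scn3a, the α subunit of the developing brain, was at 2328, 2090, 2030 and 1456 normalized counts in controls and at 2599, 2060, 2379 and 2372 in SAP97-cKO libraries. The 3 highest values were SAP97-cKO libraries, but SAP97-cKO 2 was within the control range. The log2 fold change was 0.25 (SE 0.13, interval -0.04 to 0.54, edgeR adjusted p = 0.464) with all libraries, 0.13 without control 4 and 0.18 with length offsets.

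Scn1a was the 1 α gene with a lower mean in SAP97-cKO hippocampi. It had 4833, 5045, 5534 and 4089 normalized counts in controls and 4920, 4161, 4725 and 4511 in SAP97-cKO libraries, which all lay inside the control range. Its means of 4875 ± 601 and 4580 ± 325 (SD, n = 4 each) gave a log2 fold change of -0.09 (SE 0.09, interval -0.30 to 0.12, edgeR adjusted p = 0.698). Control 4 and control 3 pulled it opposite ways: the value was -0.17 without control 4 and -0.01 without control 3. It was -0.16 with length offsets and -0.03 with the level of the choroid plexus genes as a covariate.

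**Figure D2:**
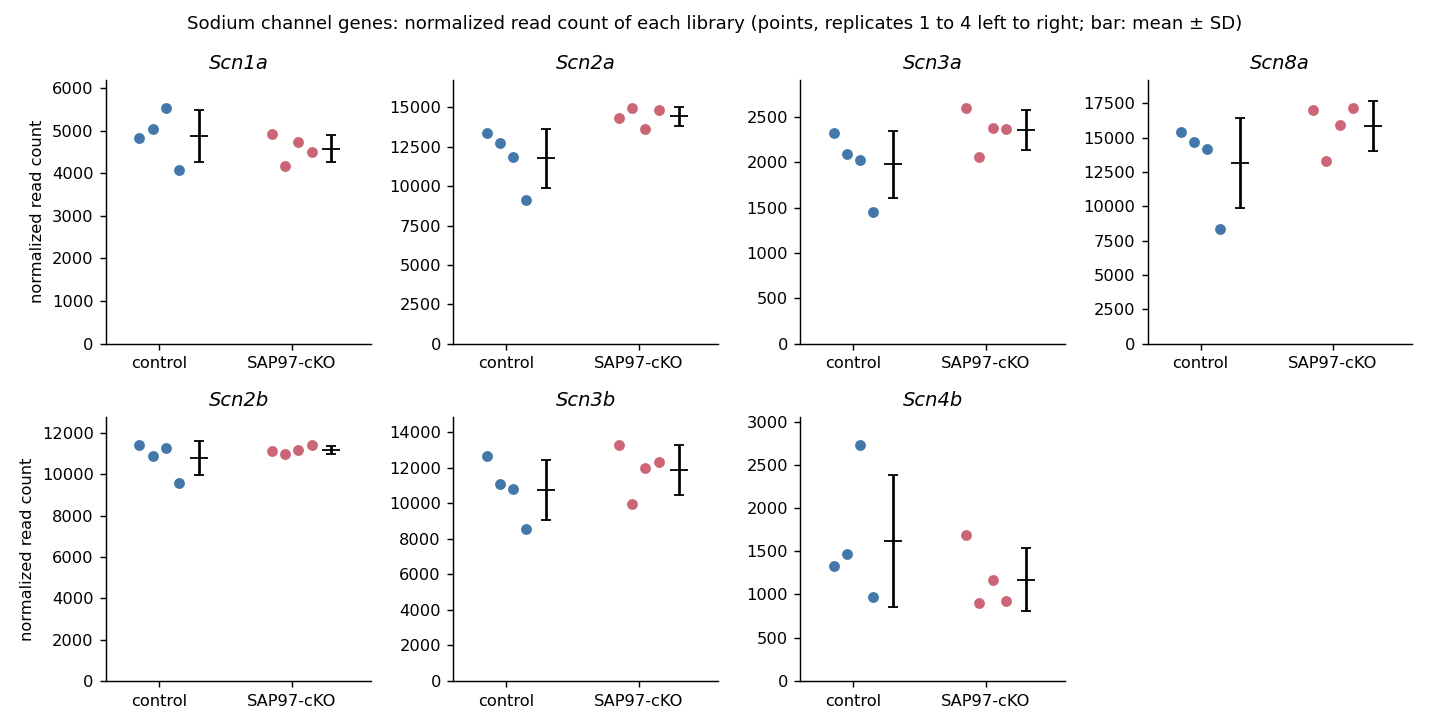
Normalized read count of the 7 sodium channel genes in each library (blue points control, red points SAP97-cKO, replicates 1 to 4 from left to right), with the mean ± SD of the 4 libraries beside them; each axis starts at 0. Only for Scn2a do the groups not overlap, and the last control point is the lowest of the 8 for every gene but Scn4b.

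Of the β genes, Scn2b had the least variable counts of the 7. Its subunit is a disulphide-linked partner of the α chains. The counts were 11393, 10875, 11286 and 9576 in controls and 11129, 10982, 11194 and 11399 in SAP97-cKO libraries. Apart from control 4, the 7 other libraries fell within 10875 to 11399 counts. The log2 fold change was 0.05 (SE 0.07, interval -0.10 to 0.21, edgeR adjusted p = 0.769) with all libraries, -0.00038 without control 4 and 0.05 with length offsets. The interval reaches a fold of 1.15 at its upper end.

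Scn3b, whose subunit binds the α chain without a disulphide bond, was measured at 12651, 11113, 10808 and 8553 counts in controls. In SAP97-cKO libraries it was at 13269, 9952, 11967 and 12359. The groups overlapped, and the log2 fold change was 0.14 (SE 0.12, interval -0.13 to 0.41, edgeR adjusted p = 0.644), or 0.05 without control 4 and 0.13 with length offsets.

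Scn4b differed most between mice. Its counts were 1327, 1465, 2725 and 969 in controls and 1685, 907, 1173 and 923 in SAP97-cKO libraries. Control 3 alone was above 1685 counts, and 3 of the 4 SAP97-cKO libraries were below 3 of the 4 controls. The means of 1621 ± 765 and 1172 ± 363 (SD, n = 4 each) put SAP97-cKO hippocampi at 72.3% of controls, but the log2 fold change of -0.47 had an SE of 0.30 and an interval of -1.14 to 0.20 (edgeR adjusted p = 0.539). Without control 3 the log2 fold change was -0.08 (SE 0.22, edgeR adjusted p = 0.916), so its size rests on that library, and without control 4 it was -0.65. With length offsets it was -0.48, and with the choroid plexus level as a covariate -0.22.

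With all libraries included, the spread among mice was lower within the SAP97-cKO group for all 7 genes. The coefficient of variation was 4.13% against 15.98% in controls for Scn2a, 11.4% against 24.7% for Scn8a, 1.55% against 7.74% for Scn2b and 31.0% against 47.2% for Scn4b. Control 4 is the lowest control for each of these genes, but for Scn4b control 3, at 2725 counts, lay farther from the gene mean. Controls 1 to 3 alone spanned 14172 to 15435 counts for Scn8a and 10808 to 12651 for Scn3b. The SAP97-cKO libraries spanned more, 13276 to 17169 and 9952 to 13269. The same held for Scn1a and Scn3a, whereas for Scn2a, Scn2b and Scn4b controls 1 to 3 still spanned more. The lower spread of the SAP97-cKO group in all 7 genes therefore depends on control 4. The difference in spread was not tested. The biological coefficient of variation that edgeR estimated for the genes ran from 0.0822 for Scn2b, at the 9.62nd percentile of all genes, to 0.295 for Scn4b, at the 89.9th percentile. The median of the 7 was 0.129, beside 0.128 for all genes.

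Levels can be compared between genes only per length, and were taken as CPM per kb of summed exon (mean over the 8 libraries, with the lowest and highest library). The β genes Scn2b (63.0, 55.0 to 65.4) and Scn3b (55.5, 41.9 to 64.9) were at the top of the 7. The α genes of excitatory axons followed, Scn2a at 27.5 (19.1 to 31.4) and Scn8a at 24.6 (14.2 to 29.1). Scn1a at 11.3 (9.81 to 13.3), Scn4b at 7.49 (4.87 to 14.6) and Scn3a at 4.64 (3.12 to 5.58) were lowest. The ranges of Scn2b and Scn3b overlapped, as did those of Scn2a and Scn8a, of Scn1a and Scn4b, and of Scn4b and Scn3a. Scn2a was nevertheless above Scn8a in all 8 libraries, and the other 3 pairs kept their order in 7 of 8. The order of Scn2b and Scn3b depends on the length used. The summed exons are 4656 bp and 5461 bp, but the longest annotated transcripts are 4656 bp and 4150 bp. Per kb of longest transcript Scn3b would lie above Scn2b. The ranges of Scn3b and Scn2a, and of Scn8a and Scn1a, did not touch.

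The composition of the α set was compared as the share of each gene in the summed level per kb of the 4 α genes, a measure in which a change common to long genes cancels in part. The Scn1a share was 16.4%, 17.7%, 19.9% and 21.2% in controls and 15.5%, 14.6%, 15.7% and 14.2% in SAP97-cKO libraries. The 4 SAP97-cKO shares lay below all control shares. The means were 18.8% ± 2.18 and 14.99% ± 0.708 (SD, n = 4 each), and the difference of -3.82 percentage points had p = 0.0286 in an exact two-sided permutation test, or 0.2 after Benjamini-Hochberg adjustment over the 7 shares compared. Without control 4, where the share was highest, the difference was -3.02 points. The share depends on all 4 genes, and the Scn1a counts themselves overlapped between the groups, as given above.

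The shares of the other α genes overlapped between the groups. Scn2a held 39.4% ± 1.601 of the α level in controls and 41.5% ± 3.06 in SAP97-cKO libraries, Scn8a held 35.1% ± 2.96 and 36.6% ± 2.47, and Scn3a held 6.73% ± 0.239 and 6.88% ± 0.378 (exact permutation p = 0.314, 0.457 and 0.543). Among the 3 β genes Scn2b held 50.4% ± 2.40 and 50.04% ± 3.16, Scn3b held 42.7% ± 2.73 and 45.1% ± 2.34, and Scn4b held 6.94% ± 2.79 and 4.85% ± 1.23 (exact permutation p = 0.914, 0.2 and 0.2). All these groups overlapped, and each ± is the SD of 4 libraries. Which of Scn2b and Scn3b holds the larger share depends on the length used, as for their levels above.

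**Figure D3:**
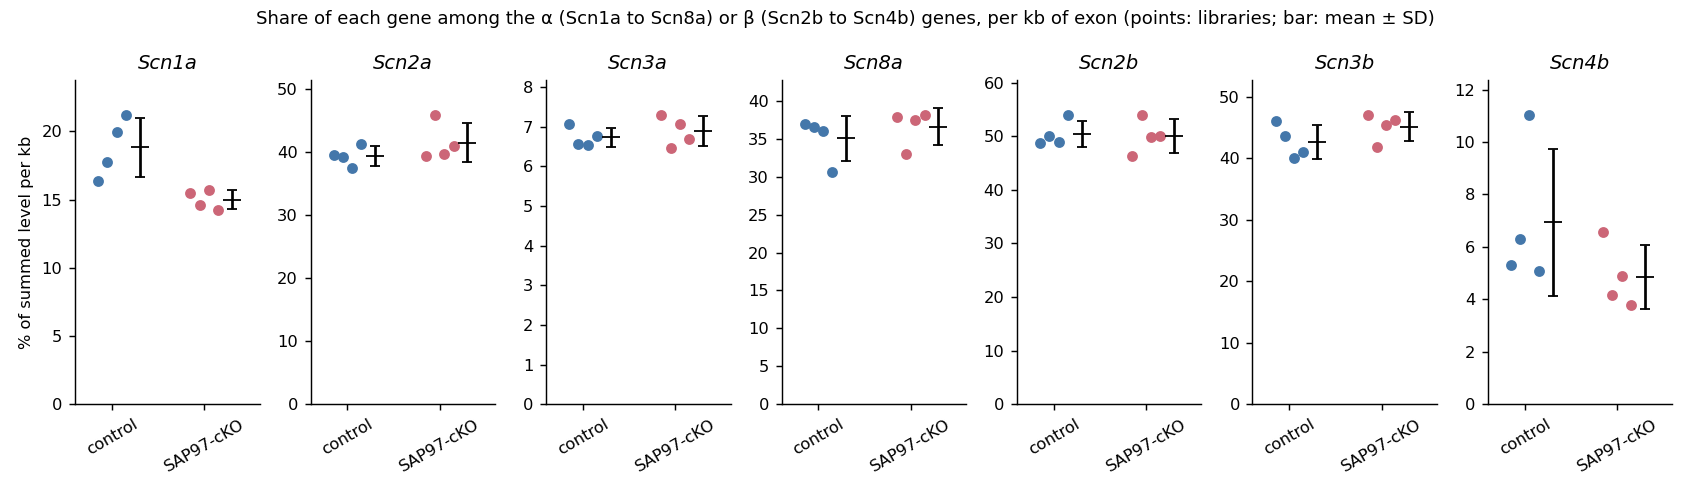
Share of each gene in the summed level per kb of exon of the 4 α genes or of the 3 β genes, in percent (blue points control, red points SAP97-cKO, with the mean ± SD beside them; each axis starts at 0 and has its own scale). The Scn1a shares of the 4 SAP97-cKO libraries, 14.2% to 15.7%, lie below the 4 control shares, 16.4% to 21.2%.

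Over the 8 libraries Pearson's r of log2 CPM was computed for all 21 pairs of the 7 genes. Because control 4 was low for long genes in general, values are also given without the 2 libraries farthest from the median of the first gene of the pair, or without control 4 alone. Scn3a and Scn8a had r = 0.974 (rho 0.905) and 0.881 without control 4 and SAP97-cKO 1. Scn3a and Scn3b had r = 0.955 (rho 0.881) and 0.881 without the same libraries. Scn8a and Scn3b had r = 0.931 (rho 0.881) and 0.955 without control 4 and SAP97-cKO 4. All 3 genes were lowest in control 4 and, among the SAP97-cKO libraries, in SAP97-cKO 2. The exact permutation p of r was at most 0.000496, or 0.00347 adjusted over the 21 pairs (p of rho at most 0.00724, adjusted 0.038).

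Scn1a and Scn4b, an α gene and a β gene on different chromosomes, also moved together. Their r was 0.916 (exact permutation p = 0.000769, adjusted over the 21 pairs 0.00404), their rho was 0.905 (exact permutation p = 0.00456, adjusted 0.038), and r was 0.887 without control 3 and control 4. Both were highest in control 3. With the other 5 genes Scn4b had r from -0.0936 to 0.327, and from -0.625 to 0.162 without the 2 farthest libraries of each pair. Scn2b, which lies 8.32 kb before it on the same strand of chromosome 9 (chr9:45117782-45130070 and chr9:45138395-45154152), had r = 0.327 with it (rho 0.0714, exact permutation p = 0.39 and 0.882, and r = 0.162 without control 2 and control 4). Scn2a had r = 0.877 with Scn3a and 0.87 with Scn8a (exact permutation p = 0.0171 and 0.0305, adjusted 0.0541 and 0.0712, with rho of 0.571 and 0.5 and p of 0.151 and 0.216). Those values fell to 0.17 and 0.0727 without control 3 and control 4, so they rest on these libraries. Over the 7 libraries without control 4, the r of Scn2a with Scn1a and with Scn4b was negative. Its r with Scn1a, 0.144 over 8 libraries, was -0.901, and its r with Scn4b, -0.0936 over 8 libraries, was -0.839. The values without control 4 were not tested. Every r pools both groups without adjustment for genotype, and Scn2a was higher in all SAP97-cKO libraries. Variation between mice and the difference between groups are therefore not separated in them. The points of every pair share their library, its depth and its length profile.

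Each gene was compared with all other genes tested to find those most like it over the 8 libraries, which were picked for their r and carry no test. Scn4b was closest to Syt2 (r = 0.972), the synaptotagmin of fast-releasing terminals, and to Rif1 (0.968). Syt2 was at 48.8, 53.0, 106 and 36.99 CPM in controls and at 50.4, 30.4, 45.7 and 34.2 CPM in SAP97-cKO libraries, with the same high value in control 3 as Scn4b. Pvalb, the calcium buffer that marks parvalbumin interneurons, was at 44.7, 41.7, 78.9 and 54.7 CPM in controls and 42.0, 29.4, 40.4 and 37.2 CPM in SAP97-cKO libraries, also highest in control 3 (log2 fold change -0.56, edgeR adjusted p = 0.353). All 8 genes of the GABAergic marker list were detected in every library, and their summed level was 1315 to 1446 CPM in controls, with the lowest value in control 3, and 1205 to 1454 CPM in SAP97-cKO libraries. Gad1 (330.4 CPM), Sst (179.5 CPM), Vip (10.5 CPM) and Lhx6 (15.9 CPM) had their lowest control value in control 3, whereas Slc32a1 (77.6 CPM) was, like Pvalb, highest there. The log2 fold changes were -0.05 for Gad1, -0.02 for Sst, -0.15 for Vip, 0.05 for Lhx6 and -0.06 for Slc32a1. Whether the number of such neurons in the dissected tissue differed between mice was not tested.

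The genes most like Scn1a were Chd7 (r = 0.976) and Tcf12 (0.956). Those most like Scn8a were Fry (0.997) and Dnajb14 (0.996), like Scn3a Tbc1d5 (0.996) and Dyrk1a (0.994), and like Scn2a Tecpr2 (0.992) and Armcx4 (0.99). For Scn3b they were Cttnbp2 (0.993) and Paqr9 (0.986), and for Scn2b Setd1b (0.987) and Kif21a (0.987).

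**Figure D4:**
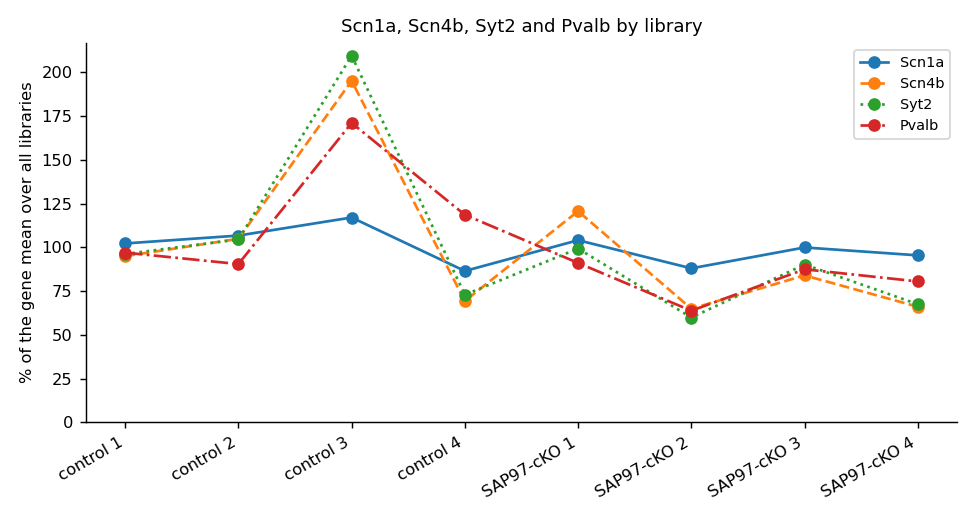
Level of Scn1a, Scn4b, Syt2 and Pvalb in each of the 8 libraries, as a percentage of the gene's own mean over all libraries, with the axis starting at 0. All 4 genes are highest in control 3, where Scn4b reached 2725 normalized counts and Syt2 106 CPM.

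Of the 5 other genes of the family described here, 2 passed the filter on low counts. Scn7a, a sodium sensor of glia rather than a voltage-gated channel, and Scn9a, the channel of pain-sensing neurons, were at 0.532 and 0.183 CPM per kb, with log2 fold changes of -0.03 and -0.10. The Scn9a value is uncertain, because its exons overlap those of the antisense gene Gm13629 (701 against 433 counts in all libraries) and the strand setting of the counting was not given. Scn4a, the muscle channel, had 9 counts in all controls and 14 in all SAP97-cKO libraries, and the sensory neuron channels Scn10a and Scn11a had 3 against 11 and 6 against 19. Of those 11 and 19 counts of the SAP97-cKO group, 10 and 12 were in SAP97-cKO 2.

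Sodium channels are held at the axon initial segment and at nodes by ankyrins and spectrins, bound by cell adhesion molecules and by fibroblast growth factor homologous factors, and modified by kinases and ubiquitin ligases. A list of 35 genes of these kinds, chosen with earlier results of these data known, was compared, and all were tested. At the FDR of 0.25 edgeR called 1 lower and 0 higher in SAP97-cKO hippocampi, and DESeq2 called 4 in all, beside 0.295% and 6.75% of all genes by the same tools. At an unadjusted p under 0.05 there were 1 lower and 3 higher, or 4 of 35 beside 11.7% of all genes, and 6 of the 35 had groups that did not overlap, beside 6.25% of all genes. The log2 fold change was above 0 for 30 and below 0 for 5, with a median of 0.11. Over all genes it was above 0 for 7677 and below 0 for 8574 with a median of -0.01, and among the 2710 genes with over 8 kb of exon the median was 0.07. Without control 4 these were 27 and 8 with a median of 0.08, and with length offsets 28 and 7 with a median of 0.07.

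The partner that fell was Sgk1, a glucocorticoid-induced kinase that acts on ion channels in the membrane. The paper had already listed Sgk1 among its differentially expressed genes from these same libraries, so its call here is not independent of that result. Sgk1 had 3927, 4426, 3686 and 3529 normalized counts in controls and 2574, 2528, 2733 and 2695 in SAP97-cKO libraries. All SAP97-cKO libraries lay below the lowest control, with a log2 fold change of -0.56 (SE 0.08, edgeR adjusted p = 0.143). The call was lost without control 2, SAP97-cKO 3 or SAP97-cKO 4 (edgeR adjusted p = 0.424, 0.524 and 0.346), where the log2 fold change was -0.50, -0.58 and -0.57. In each of those fits edgeR called 0 of all genes tested. The adjusted p of Sgk1 over the 18 alternatives ran from 1.12e-06 (DESeq2) to 0.524. Its log2 fold change was -0.61 without control 4 and -0.57 with length offsets. The 10 kinases, ligases and other modifiers to which it belongs had a median of 0.05, with 9 above 0.

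Of the 14 anchoring and adhesion genes, 13 had a log2 fold change above 0, with a median of 0.22, and 0 passed the FDR of 0.25. The median was 0.10 without control 4 and 0.13 with length offsets. Nrcam, an adhesion molecule of the initial segment and nodes, had 14226, 13336, 12759 and 10802 normalized counts in controls and 15281, 15121, 15087 and 15921 in SAP97-cKO libraries. The groups did not overlap, and the log2 fold change was 0.26 (edgeR adjusted p = 0.347), or 0.19 without control 4 and 0.18 with length offsets. The paper lists Nrcam primers for its qPCR of selected genes in hippocampus, where it saw no difference between the groups. L1cam, its relative on axons, had 4262, 3766, 3835 and 2967 counts in controls and 3896, 5890, 4798 and 5052 in SAP97-cKO libraries. SAP97-cKO 1 was within the control range, and the log2 fold change was 0.41 (edgeR adjusted p = 0.350), or 0.31 without control 4, 0.38 with length offsets and 0.25 with the neuron level as a covariate.

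All 4 FGF homologous factor genes had log2 fold changes above 0, with a median of 0.10. Fgf14, which binds the C-terminal part of the α subunits, was measured at 1205, 1166, 1196 and 1187 normalized counts in controls and at 1231, 1441, 1424 and 1538 in SAP97-cKO libraries. Its controls lay close together, control 4 among them, and every SAP97-cKO library was above them. The log2 fold change was 0.25 (edgeR adjusted p = 0.341), 0.25 again without control 4 and with length offsets, and 0.17 with the neuron level as a covariate. The 3 calmodulin genes had a median of 0.06, and the 4 remaining partners a median of -0.01.

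**Figure D5:**
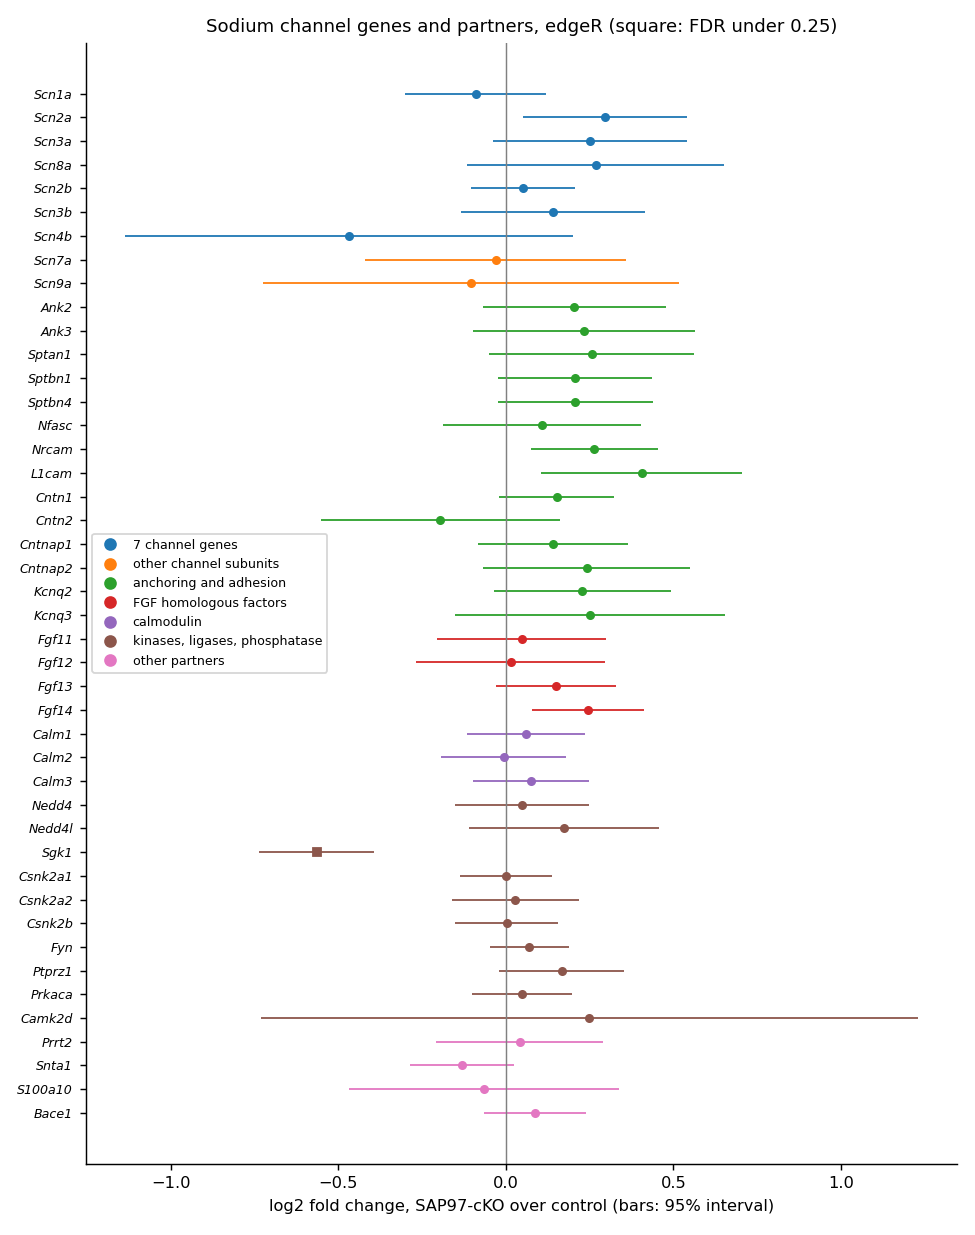
Log2 fold change (SAP97-cKO over control) with its 95% interval from edgeR for the 7 sodium channel genes, the 2 tested genes among the 5 others of the family and the 35 partner genes, coloured by list; a square marks an FDR under 0.25. Sgk1 at -0.56 is the only square, and the interval of Scn2a runs from 0.05 to 0.54.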

How the data were processed

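RNA-seq of 4 control and 4 SAP97-cKO hippocampi was analysed from the gene table. The authors aligned the reads with STAR 2.5.3a to mm10 (GRCm38.p5), as the submitters' processing notes state, removed ribosomal and mitochondrial reads, brought all libraries to the same depth by resampling, and counted reads on Ensembl genes. The deposited count of each gene is a whole number and was used as it stands. Neither strand setting nor read length is given in the sources used here. Columns that the authors deposited from their limma-voom test (log2 fold change, p-value, q-value) were left unused.

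Genes were kept with filterByExpr of edgeR 4.0.16 (minimum count 10, minimum total 15), scaled by TMM and compared by the quasi-likelihood test (R 4.3.3), adjusting by Benjamini-Hochberg over 16251 genes, at the study's FDR of 0.25. Normalized counts are TMM-scaled. The standard error is the log2 fold change divided by the square root of F. For single values, exact two-sided permutation tests used all 70 assignments. Exon lengths, coordinates and sequences come from GENCODE M21 (25696 of 25834 identifiers matched). Alternatives were limma-voom (limma 3.58.1), DESeq2 1.42.0, other scalings, filters and thresholds, covariates, a replicate block, each library left out and, added after the data were seen, length offsets. The fit was tested on simulated data. Libraries of a group differed beyond sampling noise (9.72 to 69.2 as chi-square per gene), and each was counted as 1 sample.

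The 7 genes, the partner list and the marker lists were chosen with earlier results of these data known. Genes named are the 7, 5 other genes of the family (some items are not reported here), Dlg1, partner genes at an unadjusted p under 0.05 and the 2 genes most like each of the 7 (highest Pearson r of log2 CPM). Pvalb was singled out after its values had been seen.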

Additional observations from a re-analysis of the deposited data

Results flagged for a closer look

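The family genes that passed the filter on low counts, the shares and Dlg1 were checked for outlying libraries. The highest and lowest library of each group of 4 was compared with the rest by Dixon's criterion (gap to the nearest library over the range of the group, above its 95% critical value). Of 34 groups tested, 2 had a library past it, and chance gives about 1 in 20. The shares of a set have a fixed total, so the groups are not independent. For the share of Scn8a among the α genes it was control 4 in the control group, at 30.65% where the nearest was 36.1%, and SAP97-cKO 2 in the SAP97-cKO group, at 32.94% where the nearest was 37.5%.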

How the results depend on the processing

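The direction of each of the 7 log2 fold changes and of their median held under every alternative run, except that Scn2b was -0.00038 without control 4. At an FDR of 0.25, DESeq2 called 1 of the 7 genes (Scn2a, log2 fold change 0.30), 4 partner genes and 1033 genes in all, where edgeR called 0, 1 and 48. Over all genes edgeR called 95 with no scaling, 104 with no filter, 16 with choroid plexus level and 18 with neuron level as a covariate, and at an FDR of 0.05 it called 0 genes, partners included. With each library left out in turn, 0 to 1 of the 7 genes, 0 to 6 partner genes and 0 to 1675 genes in all were called, the highest without control 1 and 0 in all without control 2, SAP97-cKO 3 or SAP97-cKO 4. The cause of these shifts was not tested. Over the same fits the log2 fold change of Scn2a ran from 0.19 to 0.36 and that of Scn2b from -0.00038 to 0.087. The Scn1a share differed by -4.64 to -3.02 points, with an exact permutation p of 0.0571 without any 1 SAP97-cKO library. The Scn2b share, -0.35 points with all libraries, ran from -1.69 to 0.88, being 0.81 without control 4 and 0.88 without SAP97-cKO 1.

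Control and SAP97-cKO libraries share replicate numbers, but same-numbered libraries correlated at -0.062, 0.201, 0.0898 and 0.259, and not every library correlated best with its own number, so the numbers were not taken to pair the mice. With the replicate number as a block, 256 genes were called, 0 of the 7 among them, and Scn2a had a log2 fold change of 0.31 (edgeR adjusted p = 0.397).

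With 4 mice a group, the 95% interval of a log2 fold change ran from -0.10 to 0.21 for Scn2b and from -1.14 to 0.20 for Scn4b, and no difference inside these intervals was excluded.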
